A study of Homo sapiens with 4 samples.

Results

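Asparagine, serine, proline and cysteine can be made inside human cells, and the genes of these syntheses were followed through the response of 2 cancer cell lines to CPYPP. The set held the rows whose gene symbol was ASNS, PHGDH, PSAT1, PSPH, SHMT2, MTHFD2, ALDH1L2, ALDH18A1, PYCR1 or CTH, and all 10 were found among the 61806 genes of the count table. They were chosen for their roles and their known link to the transcription factor ATF4, and no measured value entered the rule. Earlier results of these data were known when the choice was made. Poly(A)-selected RNA was sequenced from the breast cancer line MDA-MB-231 and the melanoma line MDA-MB-435, both of genotype WT, as a library labelled control and a library from cells given 10 µM CPYPP for 6 h. CPYPP blocks the interaction of the exchange factor DOCK2 with Rac1 and was used by the study as an inducer of paraptosis, a form of cell death with cytoplasmic vacuoles. No vehicle was named for the control cells. There was 1 library per condition, 4 in all, so each condition is a single culture of 1 established line and no difference between CPYPP and control has a replicate check.

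ATF4 is translated when the kinases of the integrated stress response phosphorylate the initiation factor eIF2, and it raises transcription of genes for amino acid synthesis, amino acid transport and tRNA charging. The serine branch leaves glycolysis at 3-phosphoglycerate and passes through the enzymes encoded by PHGDH, PSAT1 and PSPH. Serine then feeds the mitochondrial folate cycle of SHMT2, MTHFD2 and ALDH1L2, which supplies formate, glycine and NADPH, and the sulfur of methionine reaches cysteine, and so glutathione, through CTH.

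Reads counted on genes came to between 17196385 and 22663954 per library, and the 10 genes held between 9707 and 24568 of them. SOX10, a melanocyte transcription factor, had 0 counts in the control library and 1 count in the CPYPP library of MDA-MB-231, and 3031 and 707 counts in those of MDA-MB-435. TYR, the tyrosinase gene of pigment cells, was nearly absent from MDA-MB-435 as well, with 2 and 3 counts. MITF, the regulator of that lineage, did not separate the lines, with 69.2 CPM (counts scaled to a common library size after TMM normalisation) in the control library of MDA-MB-231 against 58.9 CPM in that of MDA-MB-435, and PMEL was at 1.48 against 0.545 CPM. CDH1, which encodes E-cadherin, was at 0 in both MDA-MB-435 libraries and had 837 and 464 counts in MDA-MB-231. The 8 melanocyte markers together came to 71.2 CPM, nearly all of it MITF, in control MDA-MB-231 cells and 44.0 CPM after CPYPP, and to 259.1 and 150.1 CPM in MDA-MB-435, with 3, 2, 0 and 0 of them at 0 counts. The 7 epithelial markers came to 1902 and 1722 CPM in MDA-MB-231 and to 346.1 and 310.0 CPM in MDA-MB-435, with 0, 0, 1 and 3 at 0 counts. These sums were lower after CPYPP in both lines, and their part in the differences below was not tested.

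Within a line, a gene was called when its fold was over 2 and its adjusted p was under 0.05 by a two-sided exact binomial test on the reads of the line's control and CPYPP library, with Benjamini-Hochberg adjustment over all genes tested. Such a test compares those libraries, not the conditions, and the 95% intervals given with each fold cover counting error only. In MDA-MB-231, 1 of the 10 genes was called higher after CPYPP and 0 were called lower, against 4.22% of the 16441 genes tested called higher and 3.09% called lower. In MDA-MB-435, 3 of the 10 were called higher and 0 lower, against 3.17% of 16527 genes higher and 6.52% lower. With total counts as the scale, MDA-MB-435 had 370 higher and 1487 lower genes in place of 524 and 1078, the median over all genes moved from -0.02 to -0.16 on the log2 scale, and the same number of members, 3, was called. ASNS was called in both lines, and MTHFD2 and CTH were called in MDA-MB-435. The 10 genes had a median log2 fold change of 0.31 in MDA-MB-231 against 0.77 in MDA-MB-435, while the medians over all genes tested were -0.01 and -0.02. The fold lay above 1 for 10 of 10 genes in MDA-MB-231 (9 of 10 with total counts as the scale, where ALDH18A1 was at 0.999) and for 9 of 10 in MDA-MB-435. The counting interval lay wholly above 1 for 6 of the genes in MDA-MB-231 and for 9 in MDA-MB-435, beside 26.3% and 29% of all genes tested. With total counts as the scale it did so for 4 and 8 of them, since SHMT2 and PYCR1 in MDA-MB-231 and PYCR1 in MDA-MB-435 no longer did. Summed over the 10 genes, the level went from 487.1 to 578.3 CPM in MDA-MB-231 and from 769.3 to 1327 CPM in MDA-MB-435. In RNA of a whole culture, a change in the share of cells that hold a transcript and a change in the RNA per cell cannot be told apart.

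**Figure D1:**
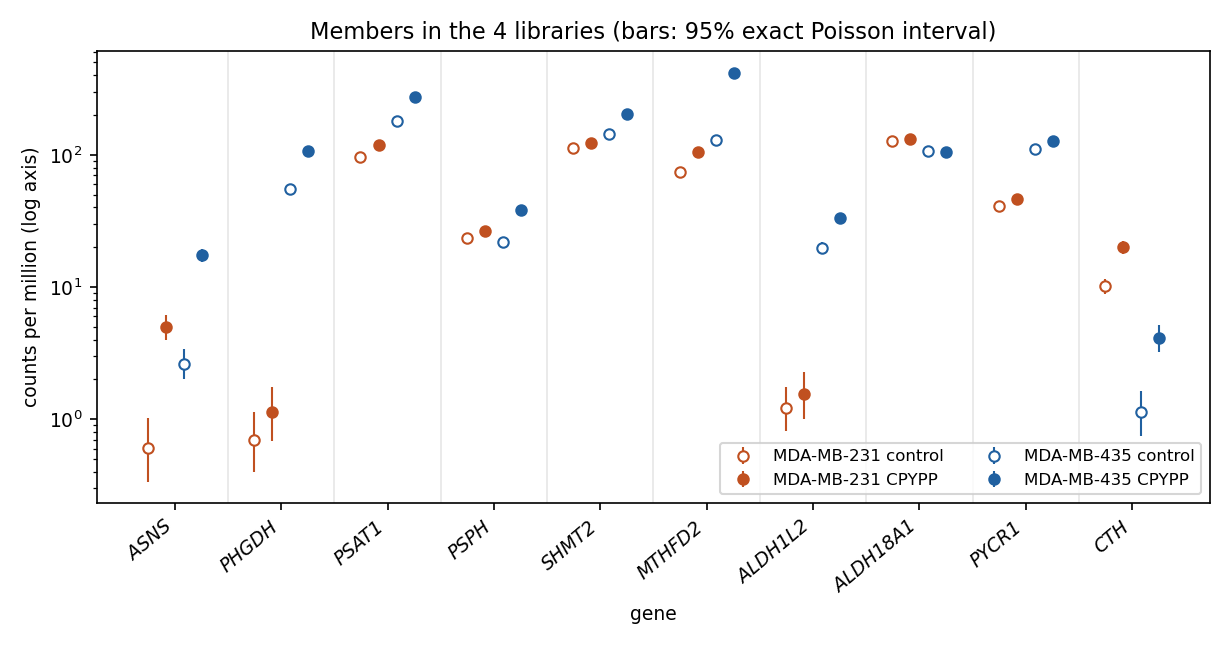
Level of each of the 10 genes in the 4 libraries, in CPM on a log axis, with open circles for control, filled circles for CPYPP, orange for MDA-MB-231 and blue for MDA-MB-435; bars are 95% exact Poisson intervals, which cover counting error only. ASNS sits higher after CPYPP in both lines, at 5.00 against 0.611 CPM and 17.4 against 2.64 CPM, while ALDH18A1 stays between 104.5 and 132.5 CPM in all 4 libraries.

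ASNS encodes asparagine synthetase, which makes asparagine from aspartate and glutamine (ENSG00000070669, chr7:97851677-97872542 of GRCh38, minus strand). Its counts were 14 in the control and 84 in the CPYPP library of MDA-MB-231, and 63 and 322 in those of MDA-MB-435. The CPYPP library was the higher one in each line, by 8.19-fold in MDA-MB-231 (4.62 to 15.6) and by 6.59-fold in MDA-MB-435 (5.02 to 8.78). The adjusted p of the exact binomial test was 1.22e-17 and 2.44e-57, and ASNS rose in both lines. By log2 fold change it stood 30th of the genes tested in MDA-MB-231 and 34th in MDA-MB-435.

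ASNS was at 0.611 and 2.64 CPM in the control libraries, and its count depends on how overlapping genes were treated. In GENCODE v29, 44.56% of its exon bases also lie in exons of ENSG00000284707, a processed transcript on the same strand, and a counter that drops reads fitting 2 genes would leave those reads out. How such reads were treated here is not given in the sources used. The overlapping gene itself had 67 and 40 counts in MDA-MB-231 and 13 and 5 counts in MDA-MB-435, so its count was above that of ASNS in the MDA-MB-231 control library. When both genes were summed, the counts were 81 and 124 in MDA-MB-231, a fold of 2.09 (1.57 to 2.80), and 76 and 327 in MDA-MB-435, a fold of 5.55 (4.31 to 7.22). Both sums passed the thresholds, with a much smaller fold in MDA-MB-231 than for ASNS alone. The interval of the MDA-MB-231 sum includes 2, so this side of the threshold is within counting error. The sum adds reads given to the other gene and does not bring back reads left out for fitting both. The overlapping gene runs on to chr7:97972985, beyond ASNS, so the sum can also hold reads from exons outside ASNS.

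The ASNS promoter is a textbook target of ATF4, through a C/EBP-ATF response element, and it is shown because ASNS was the one gene of the set called in both lines. The RefSeq promoter windows (GRCh38.p14, 250 bases before to 50 bases after a start) were searched on both strands for TGATGNAA, a spelling of that element. Windows were found for 6 of the 10 genes (ASNS with 2 starts, PHGDH, PSAT1, MTHFD2, ALDH18A1 and CTH), 7 windows in all, and not for SHMT2, PSPH, PYCR1 or ALDH1L2. The letters were present in 1 of the 7 windows, the upstream start of ASNS, and in 3.62% of 35116 promoter windows. The match lay 68 to 61 bases before the RefSeq start, at chr7:97872469-97872476 on the minus strand. The stretch below is chr7:97872458-97872487, 5′ to 3′ on the minus strand, with the match in capitals, and GENCODE v29 places it within the first exon of a longer ASNS transcript.
ASNS: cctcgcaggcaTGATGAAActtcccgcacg
A match of letters is a description of this window and no measurement of binding, and a window without it holds only no such letters.

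The genes of the serine branch had larger folds in MDA-MB-435 than in MDA-MB-231, though the intervals of PHGDH overlapped. PHGDH, the dehydrogenase that commits 3-phosphoglycerate to serine (ENSG00000092621, chr1:119648411-119744218, plus strand), had 16 and 19 counts in MDA-MB-231 and 1322 and 1975 counts in MDA-MB-435. It was close to the lower limit of detection in MDA-MB-231, where the fold of 1.62 had an interval of 0.789 to 3.37 and an adjusted p of 0.274 by the exact binomial test. In MDA-MB-435 the fold was 1.93 (1.80 to 2.07), which lies just under the threshold of 2.

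PSAT1 encodes the aminotransferase of the next step (ENSG00000135069, chr9:78297125-78330093, plus strand). It had 2211 and 1977 counts in MDA-MB-231 and 4278 and 5058 counts in MDA-MB-435, with folds of 1.22 (1.15 to 1.30) and 1.52 (1.46 to 1.59). The folds passed the test of reads but not the minimum fold in either line, with an adjusted p of 1.07e-09 and 2.81e-90 by the exact binomial test. PSPH, the phosphatase that releases serine (ENSG00000146733, chr7:56011051-56051604, minus strand), had 538 and 445 counts in MDA-MB-231 and 521 and 703 counts in MDA-MB-435. Its fold was 1.13 (0.993 to 1.28) in MDA-MB-231, where the interval reached below 1, and 1.74 (1.55 to 1.95) in MDA-MB-435. PSPH has a pseudogene on the same chromosome, PSPHP1, with 122 and 82 counts in MDA-MB-231 and 0 and 0 counts in MDA-MB-435. Of the 50-base stretches of PSPH transcripts, 2.3% occur in PSPHP1 and 6.17% in any other gene. These shares are no bound on the error of the PSPH count, and how many reads were assigned to the wrong gene was not tested. Summed over PHGDH, PSAT1 and PSPH, the fold was 1.20 (1.14 to 1.27) in MDA-MB-231 and 1.63 (1.58 to 1.69) in MDA-MB-435, and most of those counts were PSAT1.

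MTHFD2 had the largest fold of the mitochondrial folate genes in each line. It encodes the dehydrogenase and cyclohydrolase that oxidises the one-carbon unit taken from serine (ENSG00000065911, chr2:74186172-74217565, plus strand). It had 1708 and 1760 counts in MDA-MB-231 and 3063 and 7750 counts in MDA-MB-435. After scaling to library size the fold was 1.41 (1.32 to 1.504) in MDA-MB-231, not called, and 3.26 (3.13 to 3.40) in MDA-MB-435, where MTHFD2 rose and stood 204th of the genes tested. Of its exon bases in GENCODE v29, 33.24% are shared with genes on the other strand, mainly SLC4A5, and the strand setting of the counting is not given in the sources used here.

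SHMT2, the mitochondrial hydroxymethyltransferase that splits serine into glycine and a one-carbon unit (ENSG00000182199, chr12:57229573-57234935, plus strand), had 2580 and 2055 counts in MDA-MB-231 and 3443 and 3786 counts in MDA-MB-435. The folds were 1.09 (1.03 to 1.15) and 1.42 (1.35 to 1.49), both under the minimum. ALDH1L2, which oxidises formyl-tetrahydrofolate in mitochondria with production of NADPH (ENSG00000136010, chr12:105019784-105107643, minus strand), had 28 and 26 counts in MDA-MB-231 and 474 and 617 counts in MDA-MB-435. With so few counts in MDA-MB-231 the interval of its fold ran from 0.714 to 2.24 around 1.27, so a change within that range was not detectable at this depth. In MDA-MB-435 the fold of ALDH1L2 was 1.68 (1.49 to 1.896). Summed over SHMT2, MTHFD2 and ALDH1L2, the fold was 1.21 (1.16 to 1.27) in MDA-MB-231 and 2.25 (2.18 to 2.31) in MDA-MB-435. MTHFD2 alone held 7750 of the 12153 counts of the 3 genes in the MDA-MB-435 CPYPP library.

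Both proline genes had folds near 1 in both lines. ALDH18A1, the synthase that starts proline synthesis from glutamate (ENSG00000059573, chr10:95605941-95656711, minus strand), had 2896 and 2224 counts in MDA-MB-231 and 2536 and 1935 counts in MDA-MB-435. The folds were 1.05 (0.991 to 1.11) and 0.984 (0.927 to 1.04), with an adjusted p of 0.173 and 0.693 by the exact binomial test, and the interval included 1 in each line. The result in MDA-MB-435 moved with the scale, since the fold was 0.887 with total counts (adjusted p = 0.000238 by the exact binomial test) and 0.911 with upper-quartile scaling (adjusted p = 0.00523), both short of the minimum fold. PYCR1, the mitochondrial reductase of the last step to proline (ENSG00000183010, chr17:81932384-81942412, minus strand), had 934 and 781 counts in MDA-MB-231 and 2633 and 2346 counts in MDA-MB-435. Its folds were nearly equal, at 1.14 (1.04 to 1.26) and 1.15 (1.09 to 1.22). Of its exon bases, 29.73% are shared with other genes, 14.14% on the same strand. Both proline genes together had a fold of 1.07 in each line (1.02 to 1.12 in MDA-MB-231 and 1.03 to 1.11 in MDA-MB-435).

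CTH encodes cystathionine gamma-lyase, the last enzyme on the way from methionine to cysteine (ENSG00000116761, chr1:70411218-70439851, plus strand). It had 233 and 336 counts in MDA-MB-231 and 27 and 76 counts in MDA-MB-435. The CPYPP library was higher in both lines, by 1.97-fold (1.66 to 2.34) in MDA-MB-231 and by 3.63-fold (2.31 to 5.86) in MDA-MB-435. The adjusted p of the exact binomial test was 1.26e-14 and 4.27e-09, and with a fold just under 2 in MDA-MB-231 the gene was called in MDA-MB-435 and not in MDA-MB-231. The interval in MDA-MB-231 includes 2, so that this side of the threshold is within counting error.

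**Figure D2:**
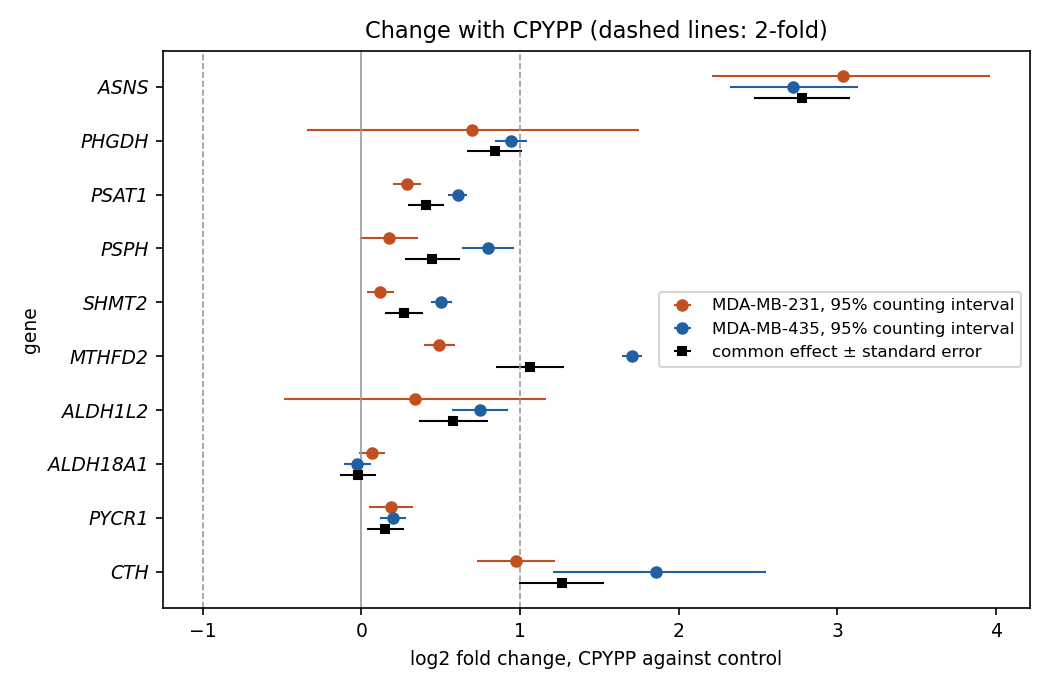
Change with CPYPP for the 10 genes, as log2 fold change against control; circles are each line with its 95% counting interval (orange, MDA-MB-231; blue, MDA-MB-435), black squares are the common effect over both lines ± 1 standard error, and dashed lines mark 2-fold. ASNS lies beyond 2-fold in both lines, MTHFD2 and CTH in MDA-MB-435, and ALDH18A1 lies at 0.07 and -0.02.

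The treatment was repeated only across the lines, and the effect shared by both was fitted on all 4 libraries with a block for the line (edgeR's quasi-likelihood test, 16801 genes, 1 residual degree of freedom). The test compares the shared effect with the difference between the lines' responses, not with the spread between cultures. At an adjusted p under 0.05, 4 of the 10 genes passed, all of them higher, against 4.39% of the genes tested called higher. ASNS rose by 2.78 on the log2 scale (SE 0.30, adjusted p = 0.00063). Summed with its overlapping gene it rose by 1.75 (SE 0.33, adjusted p = 0.0118). CTH rose by 1.26 (SE 0.27, adjusted p = 0.0199), MTHFD2 by 1.07 (SE 0.21, adjusted p = 0.0152) and PHGDH by 0.84 (SE 0.18, adjusted p = 0.018). PHGDH passed here with 16 and 19 counts in MDA-MB-231, where its own fold had not passed. The other serine and one-carbon genes had smaller values that did not pass, namely ALDH1L2 at 0.58 (adjusted p = 0.152), PSPH at 0.45 (adjusted p = 0.162), PSAT1 at 0.41 (adjusted p = 0.0604) and SHMT2 at 0.27 (adjusted p = 0.221). PYCR1 was at 0.15 (adjusted p = 0.516) and ALDH18A1 at -0.02 (SE 0.11, adjusted p = 0.949). Without the block for the line, 0 of the 10 genes passed in edgeR, and so did 0 of all 16801 genes tested. An unadjusted p under 0.05 was reached there by 0 of the 10 and by 167 of the 16801.

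How far the lines differed in their response was described by the ratio of the fold in MDA-MB-435 to the fold in MDA-MB-231. With 1 library per condition this difference has no replicate test, and the intervals again cover counting error only. With ASNS counted alone, MTHFD2 had the largest ratio, 2.32 (2.14 to 2.51). The ratio was 1.84 for CTH (1.15 to 2.95), 1.54 for PSPH (1.30 to 1.83), 1.30 for SHMT2 (1.21 to 1.40) and 1.25 for PSAT1 (1.16 to 1.34), each with its interval wholly above 1. The share of all genes with such an interval was not computed, so these intervals do not set the 10 genes apart from other genes. The intervals of the other 5 genes included 1. They were wide for PHGDH at 1.19 (0.609 to 2.32) and ALDH1L2 at 1.32 (0.766 to 2.29), which had few counts in MDA-MB-231. ASNS, also with few counts there, had a wide interval as well, at 0.805 (0.430 to 1.51) when counted alone. It was at 2.66 (1.82 to 3.86) when summed with its overlapping gene. The direction of its difference between the lines thus depends on whether the counts of the overlapping gene are added. ALDH18A1 was at 0.939 (0.866 to 1.02) and PYCR1 at 1.01 (0.902 to 1.12). The fold was larger in MDA-MB-435 for 8 of the 10 genes, 80% (9 of 10 with ASNS summed), and for 53.5% of the 14262 genes tested in both lines.

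**Figure D3:**
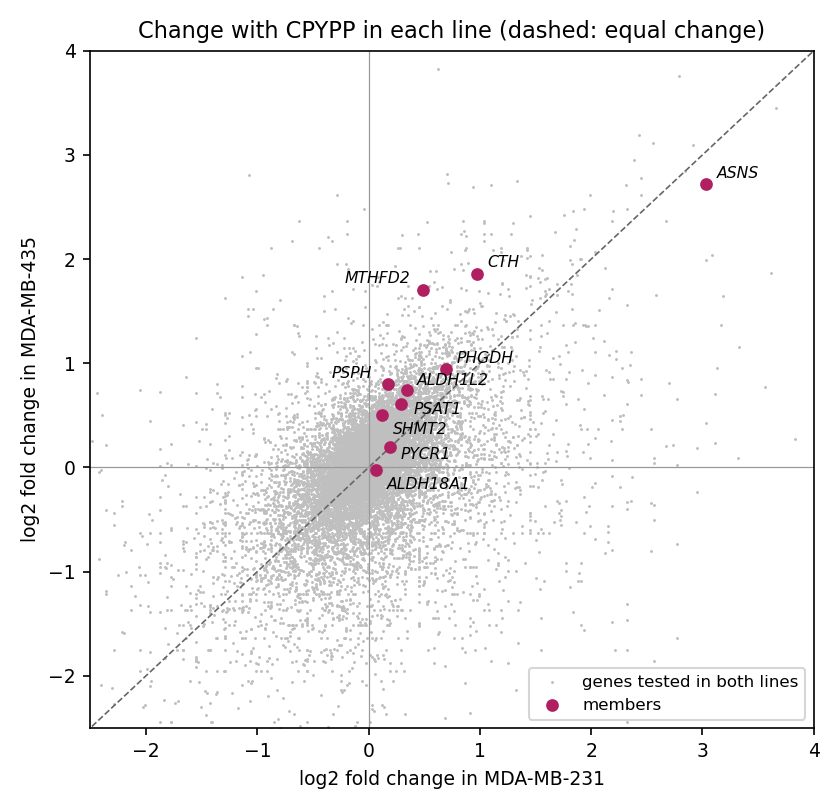
Log2 fold change with CPYPP in MDA-MB-435 against that in MDA-MB-231, with the 10 genes in purple and the genes tested in both lines in grey (58 of 14262 lie outside the axes); the dashed line marks equal change. MTHFD2 at 0.49 and 1.71 and CTH at 0.98 and 1.86 sit farthest above the line, while ASNS (counted alone) at 3.03 and 2.72 and ALDH18A1 at 0.07 and -0.02 fall below it.

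Before CPYPP the lines already differed in these genes. Between the control libraries, 4 of the 10 genes were called higher in MDA-MB-435 and 1 was called lower, against 22.2% and 20.9% of 18269 genes tested, so differences of this size were common. PHGDH was 77.1-fold higher in MDA-MB-435 (47.3 to 135.3), with 55.4 against 0.698 CPM. ALDH1L2 was 15.8-fold higher (10.8 to 24.0), ASNS 4.20-fold (2.33 to 8.11) and PYCR1 2.63-fold (2.44 to 2.84). Summed with its overlapping gene, ASNS had 81 against 76 control counts, a fold of 0.875 (0.632 to 1.21) that was not called, which left 3 genes higher and 1 lower. CTH went the other way and was 9.25-fold higher in MDA-MB-231 (6.20 to 14.3), with 10.2 against 1.13 CPM. The remaining genes were not called, with folds of MDA-MB-435 over MDA-MB-231 of 1.81 for PSAT1, 1.67 for MTHFD2, 1.25 for SHMT2, 0.904 for PSPH and 0.817 for ALDH18A1. These comparisons set 1 library against 1 library of a different line, so line and culture cannot be told apart.

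Levels of different genes were compared as FPKM, CPM divided by the exon length of the deposited table in kilobases. In the MDA-MB-231 control library PSAT1 was highest at 43.8 FPKM, followed by ALDH18A1 at 33.6, SHMT2 at 24.5, PYCR1 at 14.1, PSPH at 8.50, MTHFD2 at 6.52 and CTH at 4.21 FPKM. ALDH1L2, ASNS and PHGDH came last at 0.129, 0.125 and 0.076 FPKM, and their 95% Poisson intervals overlapped. In the MDA-MB-435 control library PSAT1 led at 81.3 FPKM, and ASNS at 0.539 and CTH at 0.469 FPKM came last with overlapping intervals. Between them stood PYCR1 at 38.2, SHMT2 at 31.4, ALDH18A1 at 28.3, MTHFD2 at 11.2, PSPH at 7.90, PHGDH at 6.03 and ALDH1L2 at 2.09 FPKM. After CPYPP in MDA-MB-435, MTHFD2 had passed ALDH18A1, at 36.6 against 27.8 FPKM, and ASNS at 3.55 FPKM was level with ALDH1L2 at 3.51 FPKM within the counting intervals. PSAT1 was still the highest at 123.9 FPKM. The exon length given for MTHFD2, 11443 bases, covers all its transcripts, which lowers its FPKM against genes with a single one. The same holds for ALDH1L2 with 9493 bases and PHGDH with 9187 bases. For ASNS the whole length of 4896 bases was used, although 44.56% of its exon bases in GENCODE v29 are shared with the overlapping gene. If reads there were left out, its FPKM is too low, so its place in these orders is uncertain.

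Other genes of the same pathways were followed as a list of 47, of which 39 had enough counts to be tested in MDA-MB-231 against 38 in MDA-MB-435. In each line 0 of them were called in either direction by edgeR's exact binomial test with a fold over 2. Without the minimum fold, 6 were higher and 12 lower at an adjusted p under 0.05 in MDA-MB-231, and 10 were higher and 9 lower in MDA-MB-435. Over all genes tested, 24.2% were higher and 20.9% lower by that rule in MDA-MB-231, against 27.6% higher and 23.2% lower in MDA-MB-435. The other pathway genes had a median log2 fold change of -0.10 in MDA-MB-231 against 0.02 in MDA-MB-435. By sublist, with MDA-MB-231 first, the medians were 0.23 and 0.24 for asparagine, aspartate and glutamine (8 and 7 genes tested), -0.18 and -0.20 for serine and glycine (7 and 7), -0.13 and -0.03 for the folate genes (13 and 13), -0.19 and -0.08 for proline and ornithine (5 and 5) and -0.14 and -0.0040 for the methionine cycle and transsulfuration (6 and 6).

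The close relatives of the 10 enzymes were set beside them for their relation, not for their values. SHMT1, the cytosolic counterpart of SHMT2, had a fold of 0.849 in MDA-MB-231 against 0.872 in MDA-MB-435. MTHFD1, the cytosolic trifunctional enzyme, had 0.923 and 0.895, and MTHFD2L, the mitochondrial relative of MTHFD2, had 0.999 and 1.43. The MTHFD2L counts were 478 and 350 in MDA-MB-231 and 375 and 415 counts in MDA-MB-435. ALDH1L1, the cytosolic counterpart of ALDH1L2, was at 1.04 in both lines. PYCR3, a relative of PYCR1, had folds of 0.763 and 0.789. None of these 5 genes was called in either line. CBS, the enzyme before CTH in transsulfuration, had 0 and 0 counts in MDA-MB-231 and 1 and 6 counts in MDA-MB-435 and was not tested.

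MTRR, one of the other pathway genes, whose product restores methionine synthase to its active form, is named after its value was seen. Its common effect was a rise of 0.47 on the log2 scale (edgeR, adjusted p = 0.0341), with 1760 and 1748 counts in MDA-MB-231 and 1450 and 1691 counts in MDA-MB-435.

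**Figure D4:**
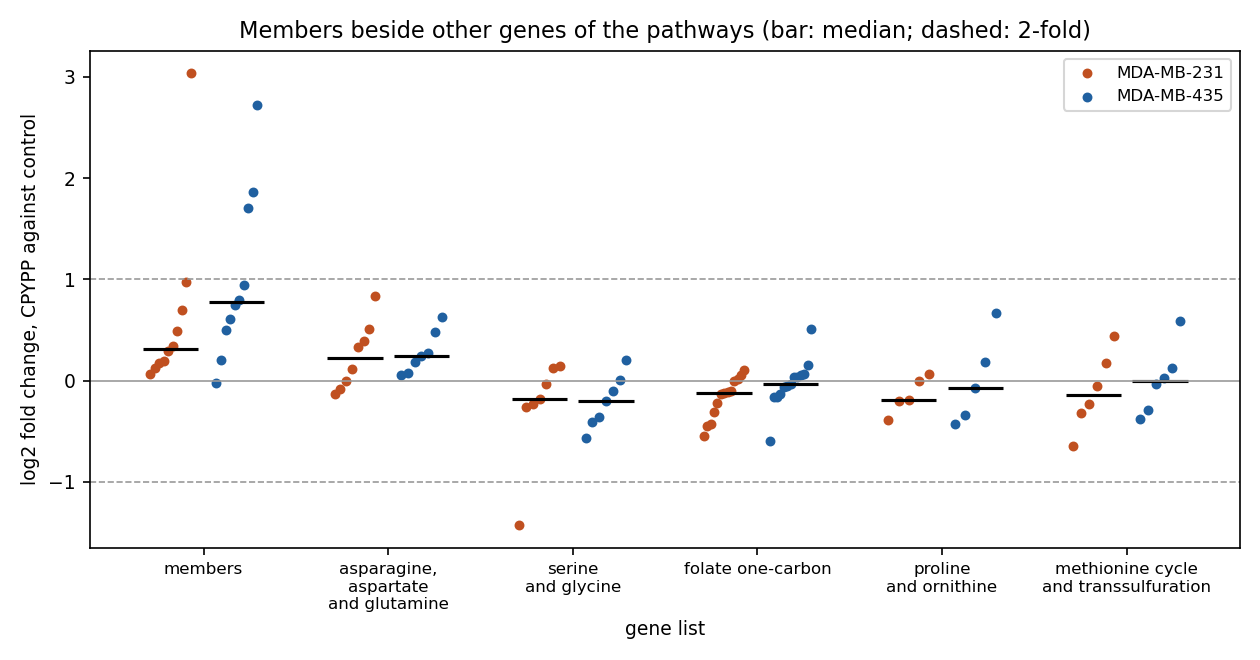
Log2 fold change with CPYPP of the 10 genes (members) and of the other tested genes of 5 pathway lists, each point a gene, orange for MDA-MB-231 and blue for MDA-MB-435; black bars are medians and dashed lines mark 2-fold. The medians of the 10 genes are 0.31 and 0.77, and those of the other lists lie between -0.20 and 0.24.

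ATF4 itself had 3441 and 3810 counts in MDA-MB-231 and 6689 and 14544 counts in MDA-MB-435. Its mRNA was 1.51-fold higher after CPYPP in MDA-MB-231 (1.44 to 1.58), not called, and rose 2.80-fold in MDA-MB-435 (2.72 to 2.89). The common effect was 1.00 on the log2 scale (SE 0.17, edgeR, adjusted p = 0.00673). The mRNA level of ATF4 does not measure its protein, which is set largely by translation. A list of 24 ATF4-linked genes of other functions, among them transcription factors, amino acid transporters and tRNA synthetases, had 5 genes called higher in MDA-MB-231 (20.8%) against 13 in MDA-MB-435 (54.2%), and 0 called lower in either line, beside 4.22% and 3.17% of all genes called higher. Its median log2 fold change was 0.39 in MDA-MB-231 against 1.18 in MDA-MB-435, beside 0.31 and 0.77 for the 10 synthesis genes. For the common effect, 14 of the 24 passed, all higher, against 4 of the 10 and 4.39% of all genes. The list was chosen with earlier results of these data known. DDIT3, TRIB3, CHAC1, ATF3, SESN2, DDIT4, SLC7A11 and SLC3A2 on it are among the genes the study itself reported as upregulated by CPYPP, DDIT4 in MDA-MB-435 only. The study also reported ATF4, TRIB3 and SLC3A2 as upregulated in both lines, whereas here they were not called in MDA-MB-231. The shares of the list therefore describe the list only, and the part of ATF4 in them was not tested.

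Among 9298 genes with a symbol and at least 100 counts in every library, the 5 whose pair of log2 fold changes lay nearest to the medians of the 10 genes were MICB, PSMD1, BSDC1, NAA30 and WAC, at distances of 0.0119 to 0.0159 on the log2 scale. The likeness is over 2 lines only, and PSMD1, for example, was at 0.33 and 0.78.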

How the data were processed

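RNA of both lines, control and CPYPP, was sequenced from poly(A)-selected libraries by a service provider. The authors deposited unnormalised read counts for 61806 genes, with positions and exon lengths. The submitters' processing notes name cutadapt 1.9.1, HISAT2 2.2.1, HTSeq 0.6.1, DESeq2 and GRCh37.p13, and neither the counting mode nor the strand setting is given in the sources used here. The deposited positions are those of GRCh38, since 58241 of the 58254 identifiers shared with GENCODE v29 overlap there. The growth and treatment notes mention no line but MDA-MB-435, and lines were taken from each sample's own cell line label.

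The analysis ran in R 4.3.3 with the packages edgeR 4.0.16 and, as an alternative, DESeq2 1.42.0. TMM factors were computed for each pair of libraries and lay between 0.950 and 1.05. Genes with at least 10 counts in 1 of the libraries were tested with a two-sided exact binomial test, intervals are 95% Clopper-Pearson, and counts under 3 were set to 3 (0.126 to 0.179 CPM) before a fold was formed. The common effect used filterByExpr, the line as a block and glmQLFit, with a common dispersion of 0.0146. FPKM and CPM were computed from the counts. With 1 library per condition, depths of 17196385 to 22663954 counts limit counting error only, and p-values do not cover the spread between cultures.

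The members and lists were chosen with earlier results of these data known. The rule for named genes was all 10 members, other pathway genes called in at least 1 line, counts for the ATF4-linked list, ATF4, and the 5 nearest genes by pattern. The relatives of the 10 enzymes, CBS, MTRR and the ATF4-linked genes given by symbol were named outside this rule. The procedure was tested on simulated data. Of the alternatives, 58 were planned and 3 were added after the data had been seen. Some values of other pathway genes are not reported here.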

Additional observations from a re-analysis of the deposited data

How the results depend on the processing

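The number of the 10 genes called, 1 in MDA-MB-231 against 3 in MDA-MB-435, was the same with total counts, DESeq2 size factors, upper-quartile scaling, either filter on low counts, a biological coefficient of variation assumed to be 0.1 or 0.2, and ASNS summed with its overlapping gene. Each setting was changed alone, so the ASNS sum under another scale was not tested. With a coefficient of 0.4 the number called was 0 in both lines. In that setting MDA-MB-231 had 4 higher and 0 lower genes in all, and MDA-MB-435 had 13 and 1. Without ASNS, an alternative chosen after seeing the data, the number called was 0 in MDA-MB-231. Without a minimum fold it was 6 in MDA-MB-231 against 9 in MDA-MB-435, and with a fold over 1.5 it was 2 and 7, since these settings ask for less. Of all genes tested, 24.2% and 27.6% were higher without a minimum fold and 8.55% and 8.30% with a fold over 1.5. The median of the 10 genes in MDA-MB-435 was 0.62 with total counts and 0.66 with upper-quartile scaling in place of 0.77, and the median over all genes moved with it, to -0.16 and -0.13. ALDH18A1 in MDA-MB-231 turned to -0.00211 with total counts, and its common effect of -0.02 ranged from -0.023 to 0.068 when each line was left out. For the common effect, 4 genes passed with total counts or upper-quartile scaling, 5 without a filter (PSAT1 added), 3 in DESeq2 (without CTH) and 0 without the block for the line, the cause of which was not tested. Over all genes and both directions, 1930 and 1648 of 16801 passed with those scalings, against 1215 in the main setting. Without a filter 1896 of 32210 passed, in DESeq2 866 of 10816, and without the block 0 of 16801. Between the control libraries, a coefficient of 0.4 left 3 of 5 calls. With ASNS summed with its overlapping gene, its difference between the control libraries turned from 2.07 to -0.19 and its difference between the responses from -0.31 to 1.41 (log2, MDA-MB-435 minus MDA-MB-231), while 4 genes still passed for the common effect. The labels carry no replicate numbers, so control and CPYPP libraries were paired by line alone. Depth limits PHGDH, ALDH1L2 and ASNS in MDA-MB-231 and CTH in MDA-MB-435 most, with 14 to 28 control counts each. The spread between cultures could not be estimated.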
